A study of Mus musculus with 4 samples.

Results

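Immediate-early genes and heat shock genes were described in sorted mouse bone marrow cells with and without Ncstn. The list held 34 genes, of the 18193 genes measured with 1 probe set each, and was chosen by gene symbol. All 34 were found. For each, the probe set brightest on average over the 4 arrays was used, and 17 of the genes had other probe sets as well. By role, 7 genes belong to the AP-1 family, 3 to the Egr family and 3 to the Nr4a family. A further 7 act in signal feedback and RNA decay, 8 in stress and signalling, and 6 are heat shock genes.

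The cells were lineage-negative, cKit-positive and Sca1-positive (LSK), a population enriched for blood stem cells and multipotent progenitors. WT mice carried Ncstn flox/flox alleles without cre. Ncstn KO mice were littermates with the genotype Ncstn flox/flox Mx1-cre+, in which an interferon-inducible promoter drives cre in many cell types, not in LSK cells alone. Nicastrin, the product of Ncstn, is part of gamma-secretase, the protease that releases the active domain of Notch receptors. All mice of both groups were given polyIC, an inducer of interferon, 3 times at 20 mcg per g of body weight from 14 days of age, and were killed 4 weeks afterwards, aged 6 weeks. Only the Ncstn KO mice carried Mx1-cre, so loss of Ncstn and the transgene cannot be told apart. WT replicate 1 and Ncstn KO replicate 2 came from males, and WT replicate 2 and Ncstn KO replicate 1 from females. Each sex and genotype therefore had 1 array.

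Immediate-early genes are switched on within minutes of a signal, without new protein synthesis, mostly through kinase pathways that act on serum response factor and CREB already bound to the DNA. Their products include the AP-1, Egr and Nr4a transcription factors, together with phosphatases and RNA-decay factors that end the response. Heat shock genes encode chaperones and are driven by heat shock factor when proteins misfold. Both classes are known to respond to tissue dissociation and sorting, and Egr1, Nr4a1 and the AP-1 genes are also expressed in resting stem cells.

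Promoter sequences were searched for the letters these factors bind. Of the 34 genes, 27 had an entry in the RefSeq table of assembly GRCm38.p6, and the 250 bases before each of their start sites were searched on both strands for 4 motifs: the CArG box of serum response factor, the heat shock element with the letters GAANNTTC or TTCNNGAA, the full cAMP response element (CRE) with the letters TGACGTCA, and its core TGACG or CGTCA, which the full CRE contains. Counted per gene, over all its start sites, a CArG box was found in 2 of the 27, Egr2 and Zfp36, against 1.62% of 27025 genes. The full CRE was found in 4 of 27, Dusp1, Btg2, Maff and Ppp1r15a, against 1.77% of all genes. The CRE core was found in 14 of 27 against 19.8% of all genes, and the heat shock element in 7 of 27 against 14.5%, among them 3 of the 4 heat shock genes with an entry. A match is a run of letters, not a measured binding site, and these shares were not tested.

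The windows below were chosen because they carry a match and belong to genes described in the results. Capitals mark the motif letters, and each window is written 5′ to 3′ along the gene's strand. The window of Fos lies on the plus strand at chr12:85473640-85473889, Egr2 on the plus strand at chr10:67537619-67537868, Dusp1 on the minus strand at chr17:26508473-26508722 and Nr4a1 on the plus strand at chr15:101266596-101266845. That of Hspa1b lies on the minus strand at chr17:34959239-34959488 and Hsph1 on the minus strand at chr5:149636316-149636565. Egr2 has 5 start sites and Hsph1 has 2 in the table, and the window of 1 start site is shown for each.
Fos: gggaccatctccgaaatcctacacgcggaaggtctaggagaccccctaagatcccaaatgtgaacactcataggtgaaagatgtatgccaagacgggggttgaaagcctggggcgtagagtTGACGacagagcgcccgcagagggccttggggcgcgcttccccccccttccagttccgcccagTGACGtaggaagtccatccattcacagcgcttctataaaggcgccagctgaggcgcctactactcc
Egr2: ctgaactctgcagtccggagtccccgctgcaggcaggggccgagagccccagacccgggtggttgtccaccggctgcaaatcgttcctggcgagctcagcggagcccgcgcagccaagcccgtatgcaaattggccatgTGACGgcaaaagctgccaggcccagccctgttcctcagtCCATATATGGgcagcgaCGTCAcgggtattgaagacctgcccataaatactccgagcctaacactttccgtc
Dusp1: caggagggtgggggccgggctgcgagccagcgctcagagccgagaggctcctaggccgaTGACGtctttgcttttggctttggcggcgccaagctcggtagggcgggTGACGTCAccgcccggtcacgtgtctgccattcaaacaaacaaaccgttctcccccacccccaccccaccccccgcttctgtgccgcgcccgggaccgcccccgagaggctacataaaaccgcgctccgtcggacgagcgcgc
Nr4a1: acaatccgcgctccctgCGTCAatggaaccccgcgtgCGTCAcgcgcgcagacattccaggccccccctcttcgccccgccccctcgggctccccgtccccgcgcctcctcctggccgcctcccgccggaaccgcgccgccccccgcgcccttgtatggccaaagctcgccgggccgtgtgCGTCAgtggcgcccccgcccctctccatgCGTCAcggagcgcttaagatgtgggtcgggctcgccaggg
Hspa1b: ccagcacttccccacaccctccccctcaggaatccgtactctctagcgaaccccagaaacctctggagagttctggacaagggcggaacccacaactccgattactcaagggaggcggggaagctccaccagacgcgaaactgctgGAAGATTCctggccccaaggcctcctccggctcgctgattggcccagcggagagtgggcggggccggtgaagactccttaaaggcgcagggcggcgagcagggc
Hsph1: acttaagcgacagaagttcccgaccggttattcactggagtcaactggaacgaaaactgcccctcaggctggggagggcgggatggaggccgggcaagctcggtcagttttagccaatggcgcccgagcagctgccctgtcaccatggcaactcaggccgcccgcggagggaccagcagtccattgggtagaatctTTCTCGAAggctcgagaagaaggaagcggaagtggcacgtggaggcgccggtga
In Egr2, the CArG box begins 72 bases before the start site and lies between CRE cores at 111 and 55 bases. Nr4a1 carries 4 CRE cores, at 233, 213, 69 and 40 bases before its start, and Fos carries 2, at 129 and 66 bases. The full CRE of Dusp1 begins at 143 bases. The heat shock element begins 104 bases before the start of Hspa1b and 54 bases before that of Hsph1.

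Intensities below are on the log2 scale, listed for WT replicate 1 (male), WT replicate 2 (female), Ncstn KO replicate 1 (female) and Ncstn KO replicate 2 (male), and a difference of 1 is a 2-fold change. Ncstn itself had intensities of 9.05, 8.98, 7.58 and 7.91, a log2 difference of -1.27 (SE 0.22, limma adjusted p = 0.257). Both Ncstn KO arrays lay below both WT arrays, and where the probe set lies relative to the deleted part was not analysed here. Of 13 LSK markers, 11 were measured, with Cd34 at 12.81, 12.80, 12.78 and 12.77 and Kit at 11.94, 11.57, 11.70 and 11.73. Of the 11, 9 were lower in females than in males and 5 had both females below both males, against 11.5% of all genes. Meis1 and Hlf, stem cell transcription factors named after their values were seen, had 10.71, 10.27, 10.01 and 10.91 and 11.14, 10.92, 10.81 and 11.40, with the female Ncstn KO array lowest and the male one highest. Over the 11 markers, the female Ncstn KO array was the lowest for 3 and the highest for 2, among them Slamf1 at 11.07. The male one was the highest for 5. Ly6a, which encodes Sca1, was not analysed here. Over the 4 arrays, the median intensity was 71.6 to 79.2 on the linear scale. These are bulk samples, in which fewer cells of a type and less RNA per cell cannot be told apart.

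No immediate-early or heat shock gene on the list differed between Ncstn KO and WT in limma's test with Benjamini-Hochberg adjustment over all genes at 0.05. The same fit called 0% of all genes, while 1237 genes had an unadjusted p under 0.05. With the arrays centred on their medians it called 62 genes, 0 of them members. Of the members, 23 were lower and 11 higher in Ncstn KO, against 8040 lower and 10150 higher over all genes. The members' median log2 difference was -0.08, against 0.02 over all genes. This median turned to 0.22 without Ncstn KO replicate 1 and was -0.34 without Ncstn KO replicate 2, -0.23 without WT replicate 2 and -0.0045 without WT replicate 1. Mean differences of at least 2-fold were seen for Nr4a1 and Nr4a2, which encode orphan nuclear receptors. At an unadjusted p under 0.05, 2 members were lower, Egr3 and Nr4a2, against 1.84% of all genes, and 0 members were higher, against 4.96%.

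**Figure D1:**
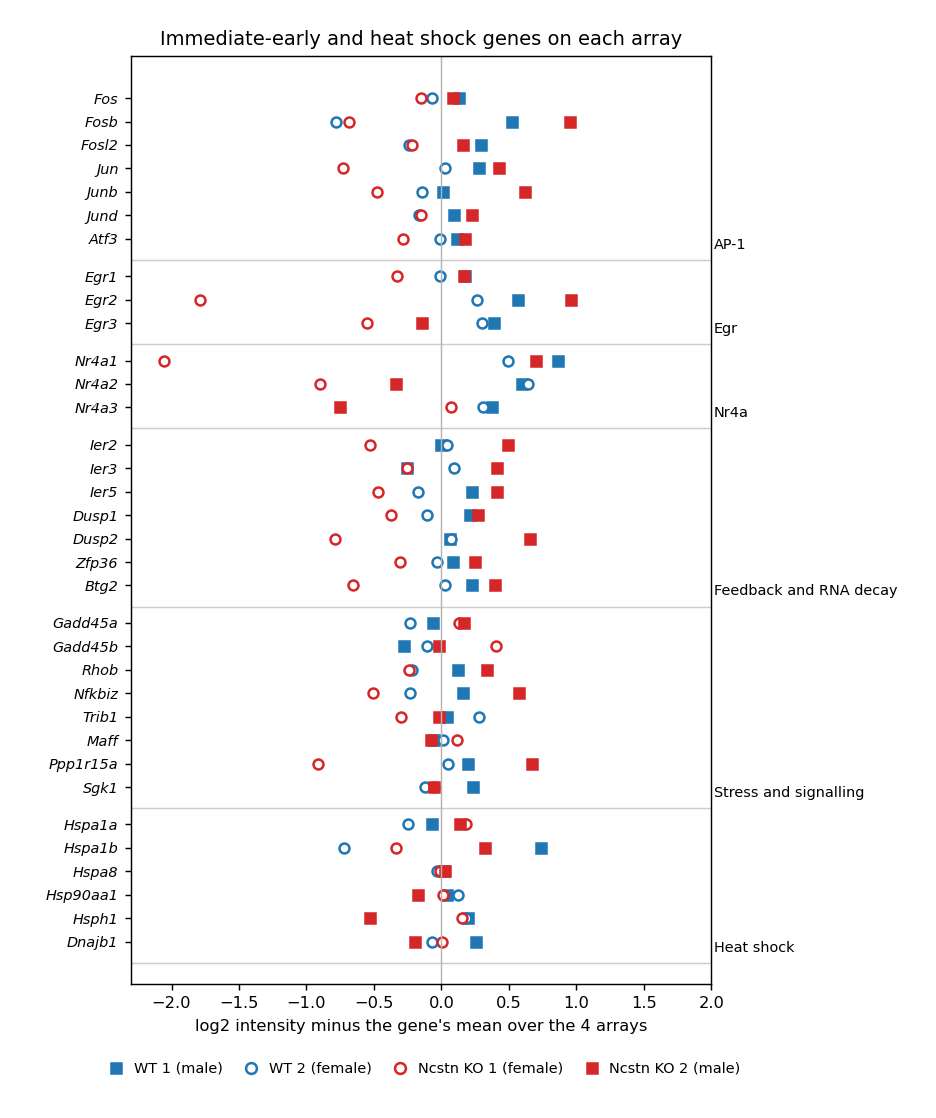
Log2 intensity of each of the 34 genes on each array, minus that gene's mean over the 4 arrays (horizontal axis), with 1 symbol per array: squares for males, open circles for females, blue for WT and red for Ncstn KO. Nr4a1 and Egr2 have 1 array far below the others, the female Ncstn KO array at 7.62 and 5.73, and in all 7 AP-1 genes both circles lie left of both squares.

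The Nr4a genes encode nuclear receptors induced by calcium and cAMP signals and by antigen receptors. Nr4a2 had intensities of 10.01 and 10.06 in WT and 8.51 and 9.07 in Ncstn KO. Both Ncstn KO arrays lay below both WT arrays, and the log2 difference was -1.24 (SE 0.23, limma adjusted p = 0.290). Nr4a2 had 6 probe sets, and 3 others with means of 8.86, 7.35 and 6.96 differed by -1.36, -1.06 and -0.80, while the 2 dimmest differed by 0.042 and 0.0058. Nr4a1 had intensities of 10.54 and 10.17 in WT, 7.62 in the female Ncstn KO array and 10.38 in the male one. Only the female Ncstn KO array was low, and the male one lay between the WT arrays. The log2 difference was -1.35 (SE 0.81, limma adjusted p = 0.882). Without Ncstn KO replicate 2 it was -2.73 (SE 0.22, limma adjusted p = 0.0282), the only difference between genotypes of any member past the threshold in any alternative, with the lone Ncstn KO array assumed to vary like the WT arrays, and without Ncstn KO replicate 1 it was 0.027. Nr4a3 was dim, at 5.77 and 5.71 in WT and 5.47 and 4.64 in Ncstn KO, and here the male Ncstn KO array was the lowest. Its log2 difference was -0.68 (SE 0.33, limma adjusted p = 0.798), while its 2 dimmer probe sets differed by 0.13 and 0.0042.

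The Egr genes encode zinc-finger factors that follow growth-factor and antigen-receptor signals. Egr1 had intensities of 13.40 and 13.21 in WT and 12.90 and 13.39 in Ncstn KO, so the male arrays of both genotypes were level and the female Ncstn KO array was lowest. Its log2 difference was -0.16 (SE 0.16, limma adjusted p = 0.963). Egr2 had 8.09 and 7.78 in WT, 5.73 in the female Ncstn KO array and 8.48 in the male one, the lowest and the highest of the 4 arrays. Its log2 difference of -0.83 (SE 0.82, limma adjusted p = 0.963) took the opposite sign, 0.55, without Ncstn KO replicate 1. A dimmer probe set of Egr2 had 7.66, 7.06, 6.36 and 8.26, with the same arrays at its ends. Egr3 had 6.89 and 6.80 in WT and 5.95 and 6.36 in Ncstn KO, and the groups did not overlap. Its log2 difference was -0.70 (SE 0.26, limma adjusted p = 0.695), while a second, dimmer probe set differed by -0.012. The median log2 difference of the Egr genes was -0.70, and without Ncstn KO replicate 1 it was 0.08.

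The AP-1 genes encode Fos, Jun and Atf3 proteins, which bind DNA as pairs. They did not separate the genotypes. Their median log2 difference was -0.06, with 4 lower and 3 higher in Ncstn KO, and the genotypes overlapped in all 7. Scaled to the hybridization controls, Junb and Jund also lay below 0, at -0.060 and -0.12. Jun had intensities of 12.64 and 12.38 in WT, 11.62 in the female Ncstn KO array and 12.78 in the male one, with a log2 difference of -0.31 (SE 0.35, limma adjusted p = 0.973). Fosb ran from 9.50 to 10.80 in WT and from 9.60 to 11.23 in Ncstn KO, so that mice of 1 genotype differed by more than the genotypes did, and its difference was 0.26 (SE 0.61, limma adjusted p = 0.991). Fos, at 13.49, 13.29, 13.21 and 13.45, differed by -0.06 (SE 0.10, limma adjusted p = 0.988). Jund, at 13.20, 12.94, 12.95 and 13.33, differed by 0.07 (SE 0.14, limma adjusted p = 0.989). Junb, a partner that restrains Jun, had 9.04, 8.88, 8.55 and 9.64. Fosl2 had 10.30, 9.76, 9.78 and 10.16. Atf3, a stress-induced member, had 7.40, 7.27, 6.997 and 7.46, and for these 3 genes the differences between genotypes lay between -0.11 and 0.14.

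Genes of feedback and RNA decay had a median log2 difference of -0.06, with 6 lower and 1 higher. In all 7, the female Ncstn KO array was the lowest of the 4 and the male Ncstn KO array the highest. Dusp1, a phosphatase that switches off MAP kinases, had 13.34, 13.02, 12.76 and 13.40. Dusp2, a nuclear phosphatase of the same family, had 10.99 and 11.00 in WT and 10.13 and 11.58 in Ncstn KO, so the 2 Ncstn KO mice stood on both sides of WT mice that were nearly equal. Zfp36, which marks AU-rich RNAs for decay, had 12.25, 12.13, 11.86 and 12.42. Btg2, an antiproliferative factor that recruits a deadenylase, had 9.90, 9.69, 9.02 and 10.07, with a difference of -0.25 (SE 0.34, limma adjusted p = 0.978). Of the IER genes, Ier2 had 11.42, 11.46, 10.89 and 11.91, Ier3 had 12.21, 12.55, 12.21 and 12.87, and Ier5 had 11.41, 11.00, 10.71 and 11.59. Ier3 had a difference of 0.16 (SE 0.23, limma adjusted p = 0.978), the only one of the 7 above 0, and -0.038 when scaled to the hybridization controls.

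Among the stress and signalling genes, 3 were lower and 5 higher, with a median of 0.06, which became -0.14 when arrays were scaled to the hybridization controls. Gadd45b, which activates stress kinases, had 9.66 and 9.84 in WT and 10.35 and 9.93 in Ncstn KO, and its log2 difference was 0.39 (SE 0.19, limma adjusted p = 0.814). Gadd45a, a growth-arrest gene of the same family, had 10.64 and 10.48 in WT and 10.83 and 10.88 in Ncstn KO, a difference of 0.30 (SE 0.13, limma adjusted p = 0.768). In both, the Ncstn KO arrays lay above the WT arrays. Trib1, a pseudokinase that targets C/EBP-alpha for degradation, had 8.79 and 9.02 in WT and 8.45 and 8.72 in Ncstn KO, a difference of -0.32 (SE 0.21, limma adjusted p = 0.907). Its second, dimmer probe set differed by -1.28. Ppp1r15a, a phosphatase subunit that reverses the block to translation under stress, had 11.41 and 11.26 in WT, 10.29 in the female and 11.88 in the male Ncstn KO array. Sgk1, a serum- and glucocorticoid-induced kinase, had 11.62, 11.27, 11.34 and 11.33, a difference of -0.11 (SE 0.14, limma adjusted p = 0.974). Rhob, a small GTPase, had 12.13, 11.79, 11.76 and 12.34, and Maff, a small Maf factor, had 7.63, 7.69, 7.80 and 7.61.

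Nfkbiz, a nuclear regulator of NF-kappaB targets, depended on the probe set. The brightest had 11.83, 11.44, 11.16 and 12.25, a log2 difference of 0.07. The next brightest had 11.21, 10.78, 8.95 and 11.01, and the dimmest had 8.14, 7.78, 5.77 and 7.71, with differences of -1.01 and -1.22. In all 3 the female Ncstn KO array was the lowest, and they differed in how far it lay below the others. Of the 17 members with several probe sets, 10 had at least 1 whose difference had the other sign.

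On the brightest probe sets of the 6 heat shock genes, 0 had the female Ncstn KO array as the lowest, but dimmer probe sets of Dnajb1, Hspa8 and Hsp90aa1 did. Their median log2 difference was -0.09, with 4 lower and 2 higher in Ncstn KO. Hsph1, an Hsp110 co-chaperone, had 12.998, 12.98 and 12.95 on the first 3 arrays and 12.27 in the male Ncstn KO array. Its difference was -0.38 (SE 0.20, limma adjusted p = 0.846), and its second probe set, at 9.89, 9.82, 9.86 and 8.47, had the same array far below the rest. Hsp90aa1, the inducible Hsp90, had 12.88, 12.96, 12.85 and 12.66, a difference of -0.16 (SE 0.09, limma adjusted p = 0.847). Dnajb1, an Hsp40 that works with Hsp70, had 11.75, 11.43, 11.50 and 11.30, a difference of -0.19 (SE 0.14, limma adjusted p = 0.927), and its second probe set had 10.89, 10.66, 10.58 and 11.40. Hspa8, the constitutive Hsc70, lay between 13.59 and 13.66 on all 4 arrays, while its dimmest probe set had 9.81, 9.63, 9.25 and 10.90. In these dimmer probe sets of Dnajb1 and Hspa8 the female Ncstn KO array was the lowest and the male one the highest, as for the feedback genes. The dimmest probe set of Hsp90aa1 had the same order over a narrow range. Hspa1b, an inducible Hsp70, had 9.27 and 8.86 in males and 7.80 and 8.19 in females, and a difference between genotypes of -0.012. Hspa1a was dim, at 3.93, 3.75, 4.18 and 4.14, a difference of 0.32 (SE 0.18, limma adjusted p = 0.860). Hspa1a and Hspa1b are near-identical copies, and their probe sets can share signal.

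Both Ncstn KO arrays lay below both WT arrays for 6 members, Egr3, Nr4a2, Nr4a3, Trib1, Hsp90aa1 and Hsph1, against 12.8% of all genes. A dimmer probe set of Trib1 and several, but not all, of Nr4a2 had the same order. In every dimmer probe set of Egr3, Nr4a3, Hsp90aa1 and Hsph1 the genotypes overlapped. Both Ncstn KO arrays lay above both WT arrays for 3 members, Gadd45a, Gadd45b and Hspa1a, against 21.3%. Scaling to the hybridization controls raised the first count to 12 and lowered the second to 1, with 44.6% and 6.73% of all genes, and it moved the median difference of all genes from 0.02 to -0.17.

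**Figure D2:**
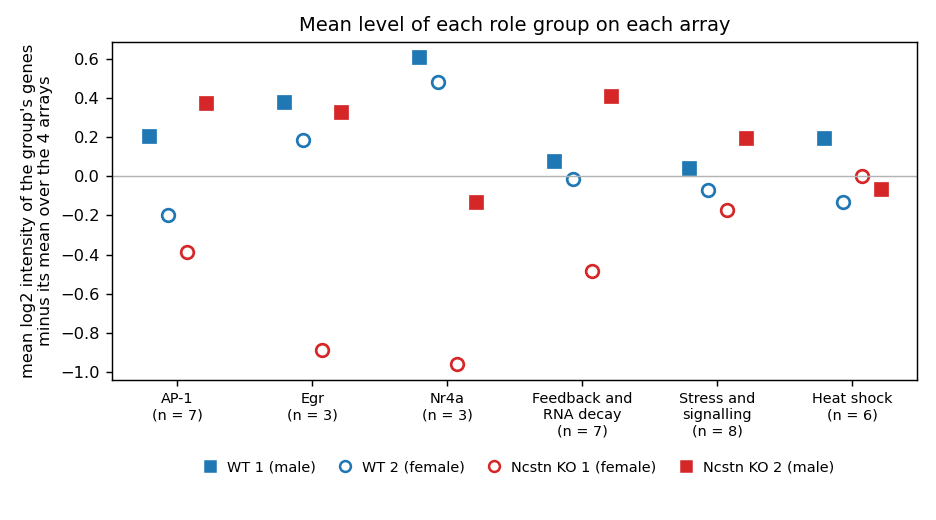
Mean log2 intensity of the genes of each role group on each array, minus the group's mean over the 4 arrays (vertical axis), with 1 symbol per array and the number of genes under each group. The female Ncstn KO array is the lowest in every group but heat shock, where it lies close to 0 and WT replicate 2 is lowest.

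The female minus male difference was larger in size than the difference between genotypes for 24 of the 34 members, against 53.8% of all genes. Female minus male, with genotype in the fit, gave a median log2 difference of -0.33 for the 34 members against 0.07 for all genes. Lower levels in females were found for 29 members, against 6698 of all 18193 genes. The 29 included all 7 AP-1, all 3 Egr and all 7 feedback genes, while the heat shock genes had a median of -0.05. None of the 34 passed limma's test after adjustment, in which 4 genes, 0.022% of all, did. At an unadjusted p under 0.05, 13 members were lower in females, against 3.05% of all genes, and 0 were higher, against 5.53%. This fit has 1 residual degree of freedom, and with 1 mouse per sex and genotype, sex cannot be told apart from other differences between these mice.

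Fosb, an AP-1 partner of Jun, had intensities of 10.80 and 11.23 in males and 9.50 and 9.60 in females, a log2 difference of -1.47 (SE 0.14, limma adjusted p = 0.352). Its p passed the threshold only with the arrays centred on their medians (limma adjusted p = 0.00165), a setting in which 58 genes were called. Hspa1b differed by -1.06 (SE 0.26, limma adjusted p = 0.574), and its 2 dimmer probe sets also had both females below both males. Jun differed by -0.71 (SE 0.22), with 12.64 and 12.78 in males and 12.38 and 11.62 in females. Dusp1 differed by -0.48 (SE 0.09), Rhob by -0.46 (SE 0.09), Jund by -0.32 (SE 0.05) and Fos by -0.22 (SE 0.04), and the limma adjusted p was 0.574 for each. For 19 members both females lay below both males, against 11.5% of all genes, and for 1, Maff, both lay above, against 29%. The 19 were all 7 AP-1 genes, Egr1, Egr2, Nr4a1, Ier5, Dusp1, Zfp36, Btg2, Rhob, Nfkbiz, Ppp1r15a, Hspa1b and Hspa8. For some of the 19 the order depended on the probe set. Dimmer probe sets of Jun and Egr2 kept it, while those of Fosl2, Jund, Ier5 and Btg2 did not. Those of Hspa8 and Nfkbiz were divided. Fosl2 and Jund were there higher in females, by 0.14 and 0.16, and Ier5 by 0.49 and 0.25. Under the 4 other scalings and with the mean of all probe sets, the count of 19 became 16 to 22, with 5.74% to 14.7% of all genes.

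Within WT, the female array was at least 2-fold below the male one for 2 members, Fosb and Hspa1b, against 0.506% of all genes, and at least 2-fold above for 0, against 0.649%. Within Ncstn KO, 10 members were at least 2-fold lower in the female, against 2.23%, and 0 were at least 2-fold higher, against 1.9%. The 10 were Fosb, Jun, Junb, Egr2, Nr4a1, Ier2, Dusp2, Btg2, Nfkbiz and Ppp1r15a. The median female minus male difference was -0.17 in WT and -0.52 in Ncstn KO, beside 0.04 and 0.10 over all genes. Of the 34 members, 22 had a lower female minus male value in Ncstn KO than in WT, against 43.1% of all genes. The 2 differences rest on 1 array each, so whether they differ was not tested. Egr2 and Nr4a1 showed the widest contrasts, at -0.30 in WT and -2.75 in Ncstn KO for Egr2 and at -0.37 and -2.76 for Nr4a1. Fosb had a similar value in each, at -1.30 and -1.64.

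**Figure D3:**
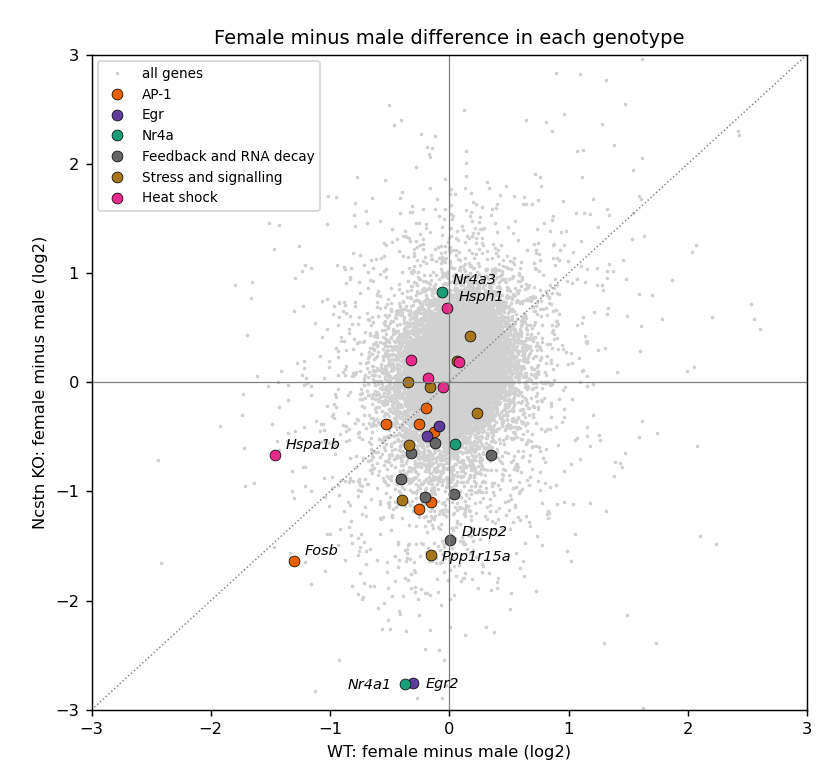
Female minus male log2 difference in WT (horizontal axis) and in Ncstn KO (vertical axis), each between 1 array and 1 array, for the 34 genes coloured by role and for all genes in grey, with 29 genes outside the axes. Nr4a1 and Egr2 lie near -2.76 on the vertical axis and at -0.37 and -0.30 on the horizontal one. Fosb lies near the dotted line of equal differences, and most heat shock genes lie around 0.

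Seen across the 4 arrays, the female Ncstn KO array was the lowest for 20 members, against 16.3% of all genes, and the male Ncstn KO array was the highest for 18, against 23.1%. The male Ncstn KO array was the lowest for 5 members, Nr4a3, Maff, Hsp90aa1, Hsph1 and Dnajb1, against 35.1% of all genes. The count of 20 came to 18 to 25 under the 4 other scalings and with the mean of all probe sets, with 8.67% to 33.4% of all genes. Compared with the WT female, the Ncstn KO female had 3 members at least 2-fold lower, Egr2, Nr4a1 and Nr4a2, against 1.3% of all genes, and 0 at least 2-fold higher, against 1.91%. Compared with the WT male, the Ncstn KO male had 1 member at least 2-fold lower, Nr4a3, against 1.05%, and 0 at least 2-fold higher, against 2.27%. The median difference was -0.27 in females and 0.10 in males. The signs were opposite in the sexes for 19 members, 0 of them with both differences at least 2-fold. The share over all genes was not counted, so the 19 cannot be read as a trait of the members. Nr4a2 was low in both sexes, by -1.55 in females and -0.94 in males, and Egr3 likewise, by -0.85 and -0.54.

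**Figure D4:**
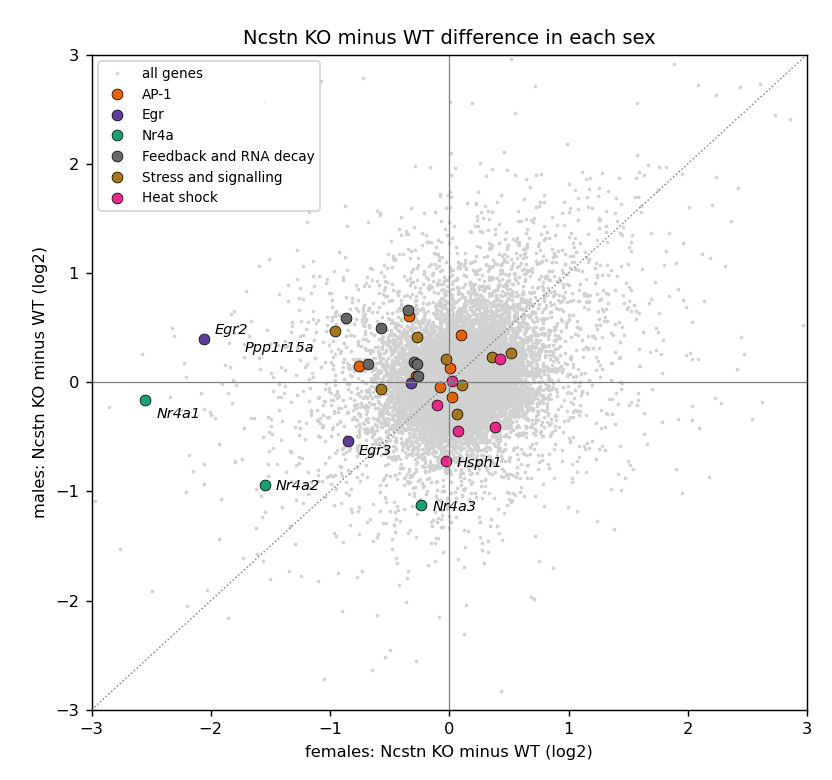
Ncstn KO minus WT log2 difference in females (horizontal axis) and in males (vertical axis), each between 1 array and 1 array, for the 34 genes coloured by role and for all genes in grey, with 27 genes outside the axes. Nr4a2 and Egr3 lie below 0 on both axes, while Egr2, at -2.06 in females and 0.39 in males, and Nr4a1, at -2.55 and -0.16, are low in females alone.

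Other genes of the same pathways gave these counts, none of which includes a gene past the adjusted threshold in either comparison. Of 41 other immediate-early genes measured, 22 were lower and 19 higher in Ncstn KO (median -0.07), and 24 had the female Ncstn KO array lowest. Ptgs2, the inducible cyclooxygenase, had 8.65, 8.49, 7.51 and 7.79, a log2 difference of -0.92 (limma adjusted p = 0.443). Plk2, a stress-induced kinase, had 10.80, 11.07, 9.10 and 10.46, a difference of -1.15 (limma adjusted p = 0.672). Dusp5, a nuclear ERK phosphatase, differed by -0.68 (limma adjusted p = 0.651) and Ccn2, a matricellular protein gene, by -0.88 (limma adjusted p = 0.661). In females 33 of the 41 were lower than in males, with a median of -0.29.

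Of 15 kinases and factors upstream of the response, 10 were lower and 5 higher in females, with a median of -0.07. Both females lay below both males for 4, against 11.5% of all genes, and above both for 4, against 29%. Between genotypes 6 were lower and 9 higher in Ncstn KO, with differences from -0.08 to 0.16, and 0 had the female Ncstn KO array lowest. Among 22 other chaperones, 21 were lower in Ncstn KO with a median of -0.14, and 18 had the male Ncstn KO array lowest, the array on which Hsph1, Hsp90aa1 and Dnajb1 were also lowest. Of these 22, 15 were higher and 7 lower in females, with a median of 0.09. Both females lay above both males for 10 and below both for 0. Cryab, a small heat shock protein, had 8.13, 9.16, 6.75 and 7.86, a difference of -1.34 (limma adjusted p = 0.669), and Dnaja4, an Hsp40, differed by 0.73 (limma adjusted p = 0.606). Of 14 genes of ER stress and the integrated stress response, 7 were lower and 7 higher. Ddit4, an inhibitor of mTORC1 signalling, had 12.23 and 12.39 in WT and 12.81 and 12.79 in Ncstn KO, a difference of 0.49 (SE 0.08, limma adjusted p = 0.257). Chac1, a target of Atf4, differed by -0.96 (limma adjusted p = 0.590).

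Markers of other cells and measures of RNA quality moved with some of these orders. Of 14 markers of mature neutrophils and monocytes, 13 were higher in Ncstn KO, with mean levels of 10.29 and 10.06 in WT and 10.64 and 10.93 in Ncstn KO, and F13a1 and Ccr2 differed by 1.64 and 1.498 (limma adjusted p = 0.210 and 0.233). In that list 11 of 14 were also lower in females than in males, as the AP-1 genes were, with a median of -0.24. Both females lay below both males for 6 of the 14, against 11.5% of all genes. Ltf, a neutrophil granule protein, had 11.55 and 11.91 in males and 10.62 and 10.97 in females, a difference of -0.94 (limma adjusted p = 0.352). Camp and Ngp, also of neutrophil granules, differed between the sexes by -0.67 and -0.55. Between genotypes Ltf, Camp and Ngp differed by 0.36, 0.19 and 0.10. The 3 markers higher in females were Itgam, F13a1 and Ccr2, by 0.32, 0.21 and 0.18. On the female Ncstn KO array the list's mean was above both WT arrays. That array was the highest for 3 of the 14, among them F13a1 at 11.44, and the lowest for 3, among them Camp at 12.74. The AP-1 genes had their lowest mean, 10.39, on that array. Mean levels of 8 B cell markers were 7.86, 7.93, 7.27 and 8.0, those of 9 T and NK cell markers 6.64, 7.07, 6.36 and 6.65, and those of 9 stromal and endothelial markers 5.99, 6.01, 5.55 and 5.99, each lowest on the female Ncstn KO array. Gzma, a cytotoxic granule protease, had 8.15, 8.53, 5.06 and 7.35 and Cxcl12, a stromal chemokine, had 8.32, 8.56, 4.69 and 7.84, in both cases with that array lowest. It was the lowest for 5 of the 8 B cell markers and for 3 of 9 in each of the T and NK cell and stromal lists. Between genotypes, 3 of the 8 B cell markers were lower and 5 higher in Ncstn KO. Ms4a1 was low in both Ncstn KO arrays, at 7.79, 7.94, 5.74 and 5.74, a difference of -2.12 (limma adjusted p = 0.161). Without Gzma the T and NK cell means were 6.45, 6.89, 6.52 and 6.56, with WT replicate 1 lowest, and without Cxcl12 the stromal means lay between 5.66 and 5.75. Among dim defining markers, Cd3e lay at 4.55 to 5.14, Pax5 at 3.80 to 4.44 and Cdh5 at 3.73 to 4.02. Other members of these lists were brighter, such as Cd79b at 11.13 to 11.37, Nkg7 at 12.7 to 12.8 and Vcam1 at 8.74 to 9.77. Mean levels of 7 erythroid markers were 7.05, 6.81, 6.53 and 6.56. The 3′ minus 5′ difference of the actin control probe sets, a sign of RNA degradation or short cDNA, was 0.889, 0.788, 1.02 and 0.939, the highest on the female Ncstn KO array. That of Gapdh was 0.713, 0.645, 0.692 and 0.768, with both females below both males. The control probe set of 18S ribosomal RNA had 12.947, 12.979, 13.027 and 12.703, highest on the female and lowest on the male Ncstn KO array. The part of these cells and of RNA quality in the results above was not tested.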

How the data were processed

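RNA from LSK cells of 4 mice (5 ng of total RNA each) was amplified with NuGEN reagents and hybridized to Affymetrix arrays, per the labels' protocols. The authors deposited probe set intensities made with RMA (submitters' processing notes), with no software version given in the sources used here. The values, 3.32 to 23642.6, are linear, and log2 was taken first, although the plan had allowed for log2 values. No detection calls were used, so the error of dim probe sets is unknown, and 2 arrays a group limit the precision.

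Of 45101 probe sets, 64 were controls, 34945 had 1 gene name, 932 had several and 9160 had no name here. Names came from GEO's platform annotation; 34741 entries matched RefSeq identifiers of GRCm38.p6. The tests used limma 3.58.1 with R 4.3.3 (lmFit, eBayes with trend, two-sided, Benjamini-Hochberg over 18193 genes), with genotype alone, and with genotype as a covariate for sex. No array was rescaled. The replicates are separate mice. Figures used matplotlib 3.10.9, and the scripts were tested on simulated data.

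The members, lists and tests were chosen with earlier results of these data known. All members are named, with full statistics for up to 4 per role group and Ncstn. From each other list, up to 4 genes with the smallest unadjusted p could be named. Meis1, Hlf, Ltf, Camp, Ngp, Itgam, Cd79b, Nkg7 and Cdh5 are further markers named after their values were seen. Alternatives were other scalings, the mean of all probe sets, no dim genes, no variance trend, other covariates and leaving out each array.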

Additional observations from a re-analysis of the deposited data

Results flagged for a closer look

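The median difference between Ncstn KO and WT had opposite signs in the sexes for some groups, each sex resting on 1 array per genotype, and the difference between the sexes was not tested. Over the 34 members the median was -0.27 in females and 0.096 in males. For AP-1 it was -0.078 in females and 0.13 in males. For feedback and RNA decay it was -0.35 in females and 0.18 in males, and for the heat shock genes 0.047 in females and -0.31 in males. Over all genes it was 0.053 in females and 0.0 in males.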

How the results depend on the processing

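In limma's test of Ncstn KO against WT, 0 genes were called as reported, 62 with the arrays centred on their medians, 3 with quantile normalization repeated, 2 among genes above the median level, and 0 to 27 on leaving out each array in turn (23 without Ncstn KO replicate 1, 27 without Ncstn KO replicate 2). Female against male called 4 genes as reported, 58 with centred arrays, 2 above the median level and 0 without the variance trend, and leaving out an array gave no test because no residual degree of freedom remained. The labels tie no arrays of the 2 groups together. Deviations of same-numbered arrays had a correlation of -0.24. With 2 arrays a group this is the same-sex correlation, 0.24, with its sign turned. It therefore cannot tell whether the number marks a pairing. The replicate block called 0 genes, as did the fit with genotype and sex, which is also the crossed pairing. Centring on the genes' own median was added after seeing the data.

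With the mean of all probe sets, the female minus male median of AP-1 was -0.29 and the genotype median of Nr4a was -0.73. Scaled to hybridization controls, the genotype medians were -0.14 for stress and signalling and -0.28 for heat shock. Leaving out an array gave genotype medians of -0.34 to 0.22 for all members, -0.34 to 0.26 for AP-1, -0.90 to 0.08 for Egr, -1.52 to -0.96 for Nr4a, -0.50 to 0.39 for feedback and RNA decay, -0.15 to 0.25 for stress and signalling and -0.23 to 0.0068 for heat shock. Of the 34 members, 11 changed sign under a scaling or probe set choice, and 25 under some alternative. With the mean of all probe sets the differences were 0.20 for Fosl2, -0.011 for Jund, 0.080 for Ier5, 0.0054 for Btg2, -0.72 for Nfkbiz and 0.015 for Dnajb1. Scaled to hybridization controls they were -0.060 for Junb, -0.12 for Jund, -0.038 for Ier3, -0.10 for Rhob, -0.12 for Nfkbiz, -0.15 for Maff and -0.18 for Hspa8. Centred on the genes' median they were -0.017 for Jund, -0.015 for Nfkbiz, -0.047 for Maff and -0.072 for Hspa8. Where no value above shows a cause, the cause was not tested.

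Leaving out each array gave these ranges of the log2 difference: Fos -0.18 to 0.060, Fosb -0.55 to 1.08, Fosl2 -0.32 to 0.21, Jun -0.89 to 0.27, Junb -0.41 to 0.68, Jund -0.12 to 0.26, Atf3 -0.34 to 0.12, Egr1 -0.41 to 0.084, Egr2 -2.21 to 0.55, Nr4a1 -2.73 to 0.027, Ier2 -0.55 to 0.48 and Ier3 -0.17 to 0.49. The others were Ier5 -0.50 to 0.39, Dusp1 -0.43 to 0.22, Dusp2 -0.86 to 0.59, Zfp36 -0.33 to 0.22, Btg2 -0.78 to 0.27, Rhob -0.19 to 0.38, Nfkbiz -0.47 to 0.61, Maff -0.056 to 0.14, Ppp1r15a -1.04 to 0.55, Sgk1 -0.29 to 0.062, Hspa1b -0.74 to 0.72 and Hspa8 -0.0084 to 0.041. Nr4a1 without Ncstn KO replicate 2 was the only member called in any alternative for genotype.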

Other observations

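Among the other immediate-early genes, several had both females below both males, in the order seen for Fosb, and they are named here after their values were seen. Sik1, a salt-inducible kinase that restrains CREB signalling, had 9.70 and 9.39 in males and 8.48 and 7.74 in females. Klf4, a zinc-finger factor of myeloid differentiation, had 10.38 and 10.93 in males and 9.49 and 9.75 in females, and Klf2 had 10.46 and 11.30 in males and 10.03 and 9.61 in females. The chemokine genes Ccl3 and Ccl4 had their lowest level in the female Ncstn KO array, at 9.93 and 10.64, and their highest in the male Ncstn KO array, at 12.24 and 12.54. In limma's test none of these passed after adjustment, for sex or for genotype.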
